A study of Mus musculus with 9 samples.

Results

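The transmembrane mucins Muc1, Muc3, Muc4, Muc13 and Muc20 were chosen by their gene symbols from the authors' deposited gene table of mouse colon epithelial RNA, together with the Cdx2 binding and open chromatin peaks at their loci. Of the 5 genes named, 4 had a row among the 17511 genes of the table. Muc4 had none, so its RNA was not analysed here and only its locus is described. RNA-seq and ATAC-seq, which maps open chromatin by transposase insertion, were each run on 2 libraries labelled DKO and 2 labelled Wt, and ChIP-seq of the homeobox factor Cdx2 on 1 library labelled Wt. By their strain labels the DKO libraries were Cdx1-/- Cdx2f/f vill (+) and the Wt libraries Cdx1-/- Cdx2f/f vill (-), so that both groups share the Cdx1-/- and Cdx2f/f parts of the label. The RNA and ATAC mice of both groups received tamoxifen for 6 days, whereas the ChIP mice are labelled untreated. The cells were colon epithelium enriched with EDTA, and no label gives an age, a number of animals or the driver behind the vill tag. Whether replicates are separate animals is not labelled, so p-values may measure technical spread only.

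Transmembrane mucins are large glycoproteins anchored in the apical membrane of epithelial cells. Their long extracellular stretches, rich in serine and threonine, carry dense O-linked glycans and form the glycocalyx beneath the secreted mucus, and their short cytoplasmic tails can take part in signalling. In the colon they coat the brush border of absorptive cells and the surface of goblet cells, whereas the gel itself is made of the secreted mucin Muc2. Cdx2 and Cdx1 are caudal-type homeobox transcription factors that maintain the identity of the intestinal epithelium.

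Estimated RNA reads summed to 20069555 and 21197446 per library in DKO and to 16403301 and 25494309 in Wt, but were given per transcript, and the gene table gave 1 mean over the libraries and 1 fold change per gene. Levels of the mucin genes in single libraries or groups were therefore not analysed here. By the authors' deposited table the targeted gene Cdx2 differed by -0.27 on the log2 scale (SE 0.21, adjusted p = 0.301) and Cdx1 by -1.06 (SE 0.23, adjusted p = 2.08e-05). Cdx1 had a mean of 2595 normalized counts although both strain labels read Cdx1-/-, and the files do not settle whether Cdx1 was null in both groups. A gene total cannot resolve a floxed or deleted exon. Of 8 general epithelial markers the authors' deposited table called 2 higher in DKO and 2 lower, with a median log2 fold change of -0.21. Absorptive colonocyte markers were lower in 6 of 6 (median -2.03), goblet cell markers in 7 of 7 (median -4.39), and stromal, muscle and endothelial markers in 12 of 12 (median -5.20) by the authors' deposited table. By the same deposited table of the authors, 2 of 8 immune markers were higher and 4 lower, 3 of 4 measured gastric markers were higher, and 1 of 2 measured stratified markers was lower. The part of these shifts in the mucin differences was not tested, and in bulk RNA fewer cells of a type and less RNA per cell cannot be told apart.

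The 4 measured transmembrane mucins did not move together: Muc3 was lower in DKO, Muc1 was higher, and Muc13 and Muc20 passed no threshold. That is 2 of 4 called, where the authors' deposited table called 36.8% of all its genes at an adjusted p under 0.05, 18.5% higher and 18.3% lower. Over its 12049 genes with a mean of at least 50, with p readjusted, the share was 45.7%. The median log2 fold change of the 4 was -0.17, against -0.02 over all genes. Folds and adjusted p values are those of the authors' deposited table, for which the submitters' processing notes name DESeq2.

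Muc3, a brush-border mucin of absorptive cells, fell in DKO. The authors' deposited table gave it a log2 fold change of -2.91, with an SE of 0.24 and an adjusted p of 8.21e-34. This put the DKO level at 13.3% of the Wt level, so that the level was 7.50-fold higher in Wt. Its mean normalized count was 41079, and 4.37% of all genes had a lower log2 fold change. Muc3 lies beside Muc3a and other gene models, among which reads of like sequence could have been split, so both values are uncertain to that extent.

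Muc1, whose cytoplasmic tail is known to bind beta-catenin and kinases, rose in DKO. The authors' deposited table gave it a log2 fold change of 2.35, with an SE of 0.46 and an adjusted p of 4.98e-07, which is a DKO level 5.12-fold the Wt level. Its mean normalized count was 857, and 97.3% of all genes had a lower log2 fold change. Muc1 and Muc3 thus stood near opposite ends of the table, with 95% intervals of 1.46 to 3.25 for Muc1 and -3.37 to -2.45 for Muc3. The intervals take the deposited SE at face value, and the deposited folds appear shrunken towards 0, since dividing fold by SE gave another p than the deposited one for most genes.

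Muc13, a transmembrane mucin with EGF-like domains that is abundant in intestinal epithelium, was not called, at a log2 fold change of 0.05 with an SE of 0.27 and an adjusted p of 0.907 by the authors' deposited table. The 95% interval of that difference ran from -0.48 to 0.58, and the mean normalized count was 60229, so a change as large as that of Muc3 or Muc1 lies outside the interval. Muc20, a small mucin whose human counterpart binds the receptor Met, was not called either, at a log2 fold change of -0.39 with an SE of 0.84 and an adjusted p of 0.549 by the authors' deposited table. Its mean normalized count was 8.09, above that of only 8.67% of the genes, and its 95% interval of -2.04 to 1.26 was wider than those of the other 3 mucins and spans changes in either direction.

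**Figure D1:**
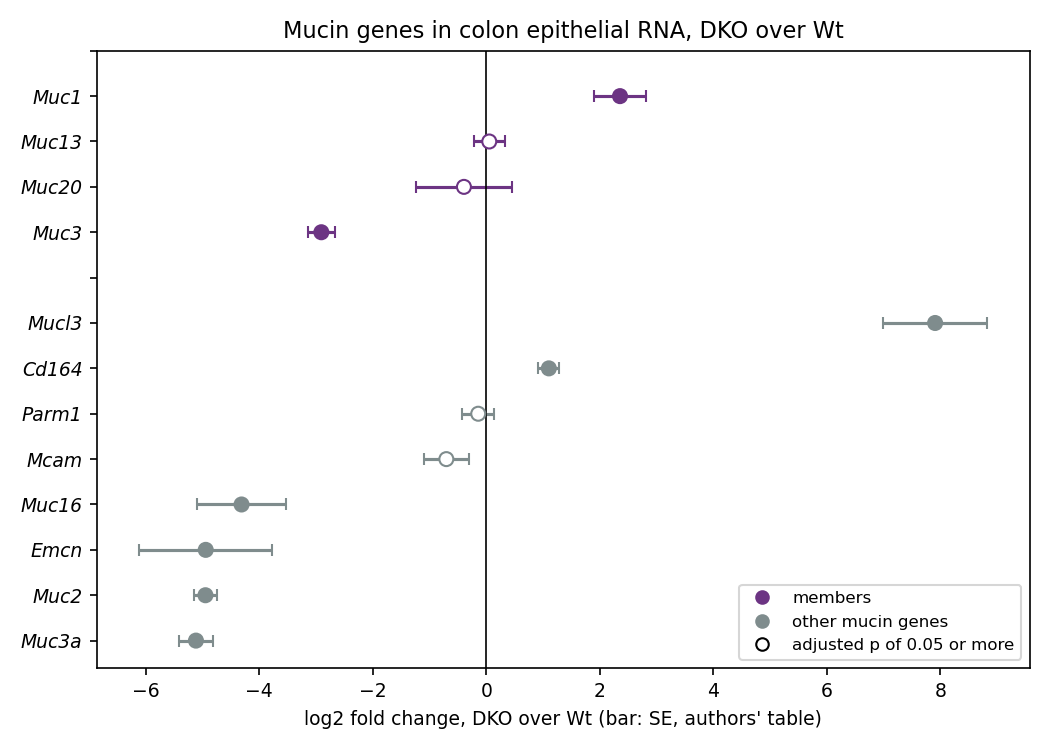
Log2 fold change, DKO over Wt, of the measured transmembrane mucins (purple) and of other mucin genes (grey), as dots with the SE of the authors' deposited table as bars; open dots did not pass an adjusted p of 0.05. Muc1 stands at 2.35, Muc13 at 0.05, Muc20 at -0.39 and Muc3 at -2.91.

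**Figure D2:**
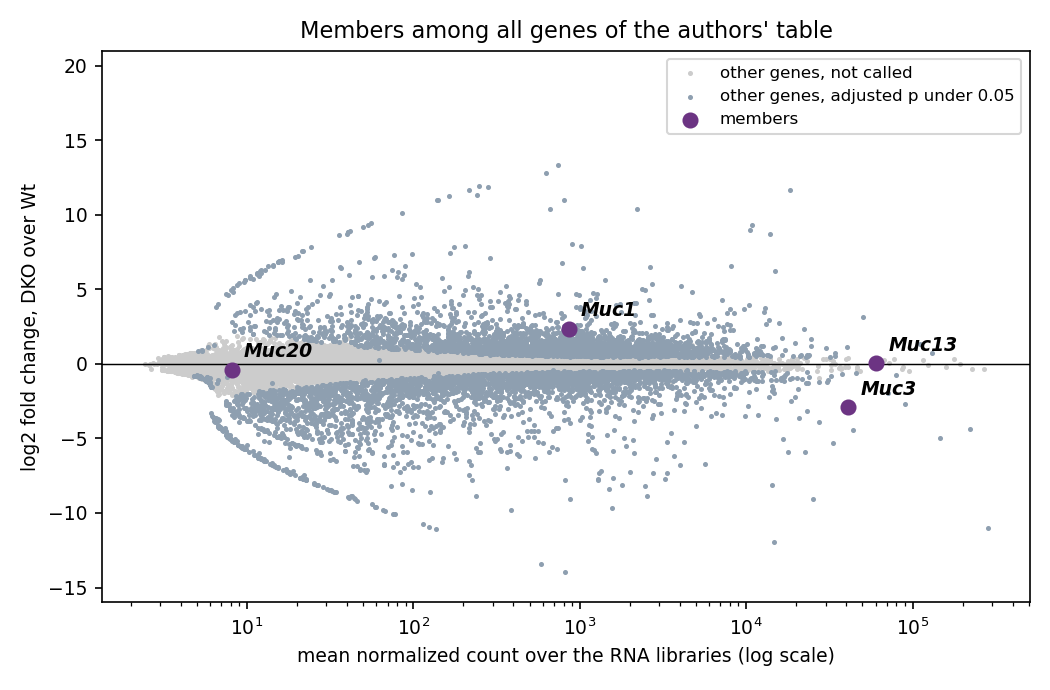
Log2 fold change, DKO over Wt, against the mean normalized count on a log scale for all 17511 genes of the authors' deposited table, with genes called at an adjusted p under 0.05 in darker grey. Muc3 lies far below the zero line and Muc13 on it, both at high mean counts, while Muc20 lies at the left with a mean of 8.09.

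Other membrane-bound mucins and mucin-like genes were also split. Of a list of 12 genes, which also counts the adhesion molecule Mcam, 7 were measured. The authors' deposited table had 2 called higher and 3 called lower. Over all genes that table called 18.5% higher and 18.3% lower, and the median log2 fold change of the 7 was -0.70, the value of Mcam. Muc3a, the neighbour of Muc3, fell at -5.12 (SE 0.30) on a mean of 2105 normalized counts by the authors' deposited table. By the same deposited table of the authors, Muc16, a very large mucin known from ocular and airway surfaces, fell at -4.31 (SE 0.78) on a mean of 73.1. Which cells of the preparation carried the Muc16 RNA was not tested. From the authors' deposited table, the mucin-like gene Mucl3 rose at 7.91 (SE 0.92) on a mean of 205, and Cd164, an endolysosomal sialomucin, at 1.10 (SE 0.18). Emcn, the endothelial sialomucin and the third lower gene, was picked out only once its values were known. It stood at -4.94 (SE 1.17) on a mean of 27.9 in the authors' deposited table, beside endothelial and stromal markers lower in 12 of 12. Parm1 (-0.14, SE 0.28) and Mcam (-0.70, SE 0.40) did not pass in the authors' deposited table. Of the 5 gel-forming mucins only Muc2 was measured, and by the authors' deposited table it fell at -4.95 (SE 0.20).

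Genes that process or bind cell-surface mucins went both ways. Of 13 proteases that shed or trim surface proteins, the authors' deposited table had 5 called higher and 4 called lower. Their median log2 fold change was -0.04, and over all genes that table called 18.5% higher and 18.3% lower. Among genes with a mean of at least 50, with p readjusted, 45.7% were called in either direction. By the authors' deposited table the brush-border metalloproteases Mep1a (-3.50, SE 0.33) and Mep1b (-1.94, SE 0.47) fell, while the membrane metalloproteases Adam8 (2.51, SE 0.59) and Adam9 (1.72, SE 0.22) rose. Adam17 and Mmp14, known to shed the ectodomain of human MUC1, and the sheddase Adam10 were picked out after the values were seen. The authors' deposited table called Adam10 higher at 1.49 (SE 0.25) and Mmp14 higher at 0.82 (SE 0.23), and had Adam17 at -0.52 (SE 0.29) with an adjusted p of 0.125. Among 17 measured partners of surface mucins the authors' deposited table had 3 called higher and 5 called lower. That stands beside 18.5% and 18.3% over all genes, and beside the 45.7% among genes with a mean of at least 50. The median log2 fold change of the partners was 0.12. The 5 lower include Pdzk1, at -2.68 (SE 3.13) on a mean of only 8.77 by the authors' deposited table. Its 95% interval, which takes that SE at face value, ran from -8.81 to 3.46 and spans both directions. By the authors' deposited table the membrane-cytoskeleton linkers Rdx (1.77, SE 0.24) and Ezr (1.19, SE 0.18) rose. Erbb2 (-1.27, SE 0.19), the receptor that rat Muc4 is known to bind, and Lgals3 (-1.19, SE 0.23), which encodes the glycan-binding lectin galectin-3, fell by the authors' deposited table.

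The list of enzymes for mucin O-glycans also holds B4galnt1 and B3gnt5, which act mainly on glycolipids and were not called. Of 32 gene rows 18 were not called and the authors' deposited table had 7 called higher and 7 called lower, shares near its 18.5% higher and 18.3% lower over all genes, and the median log2 fold change was -0.03. Among genes with a mean of at least 50, with p readjusted, 45.7% were called in either direction. From the authors' deposited table, the sialyltransferase St3gal1 fell at -4.31 (SE 0.28), B4galnt2, which makes the Sda antigen, at -3.26 (SE 0.29) and the core 3 synthase B3gnt6 at -3.23 (SE 0.44), whereas the fucosyltransferase Fut4 rose at 2.50 (SE 0.25). Of 22 transcription factors known from surface mucin or intestinal gene control, the authors' deposited table had 6 called higher and 8 called lower (median -0.23). Over all genes that table called 18.5% higher and 18.3% lower. The 22 include the targeted genes Cdx2, which was not called, and Cdx1, which is among the 8 lower. By the authors' deposited table Gata4 rose at 2.99 (SE 0.62), and Hnf4g (-1.85, SE 0.61), Foxa3 (-1.67, SE 0.37) and Foxa2 (-1.52, SE 0.26) fell. These were named for the size of their folds, and Gata4 and Hnf4g had low means, of 57.3 and 89.8 normalized counts.

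Binding and open chromatin were read from peak lists called per library. The DKO lists held 40101 and 23961 ATAC peaks and the Wt lists 48163 and 53943, and peaks touched 8.20% and 16.4% of 32851 RefSeq promoter windows in the DKO lists, against 37.5% and 39.2% in the Wt lists. The DKO libraries thus stood apart over promoters in general. Overlapping ATAC peaks were joined into 106432 regions. A region missing from both DKO lists but present in both Wt lists is called lost, and the reverse gained. Lost regions made up 23.8% of all regions and 75.2% of those in both Wt lists, and gained regions 4.98%. Absence of a peak is not absence of signal, and with 2 libraries a group no test was made.

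Across the 5 loci, each taken as the gene span with 50 kb on either side, 10 Cdx2 peaks and 80 ATAC regions were found. Of the 10 Cdx2 peaks 6 lay at regions lost in DKO, 1 touched a peak of Wt library 1 only, and 3 touched no ATAC peak. Over the genome 30.2% of 5100 Cdx2 peaks lay at a lost region, but 54.2% met no ATAC region at all. Among Cdx2 peaks at a region of both Wt lists, 84.6% over the genome lay at a lost region, and all such peaks at these loci did. Of the 33 regions held by both Wt lists 31 were lost (93.9%) and 2 kept, and 4 regions were gained. Over all protein-coding genes with at least 5 such regions, 20.01% had every region lost and the median gene had lost 80.0%. A Cdx2 peak lay within 50 kb of 4 of the 5 mucin genes, against 29% of 21887 protein-coding genes. The Muc4 and Muc20 spans overlap, and the only Cdx2 peak in the Muc20 window lies inside Muc4. Within 10 kb, only Muc3 and Muc4 had a Cdx2 peak.

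**Figure D3:**
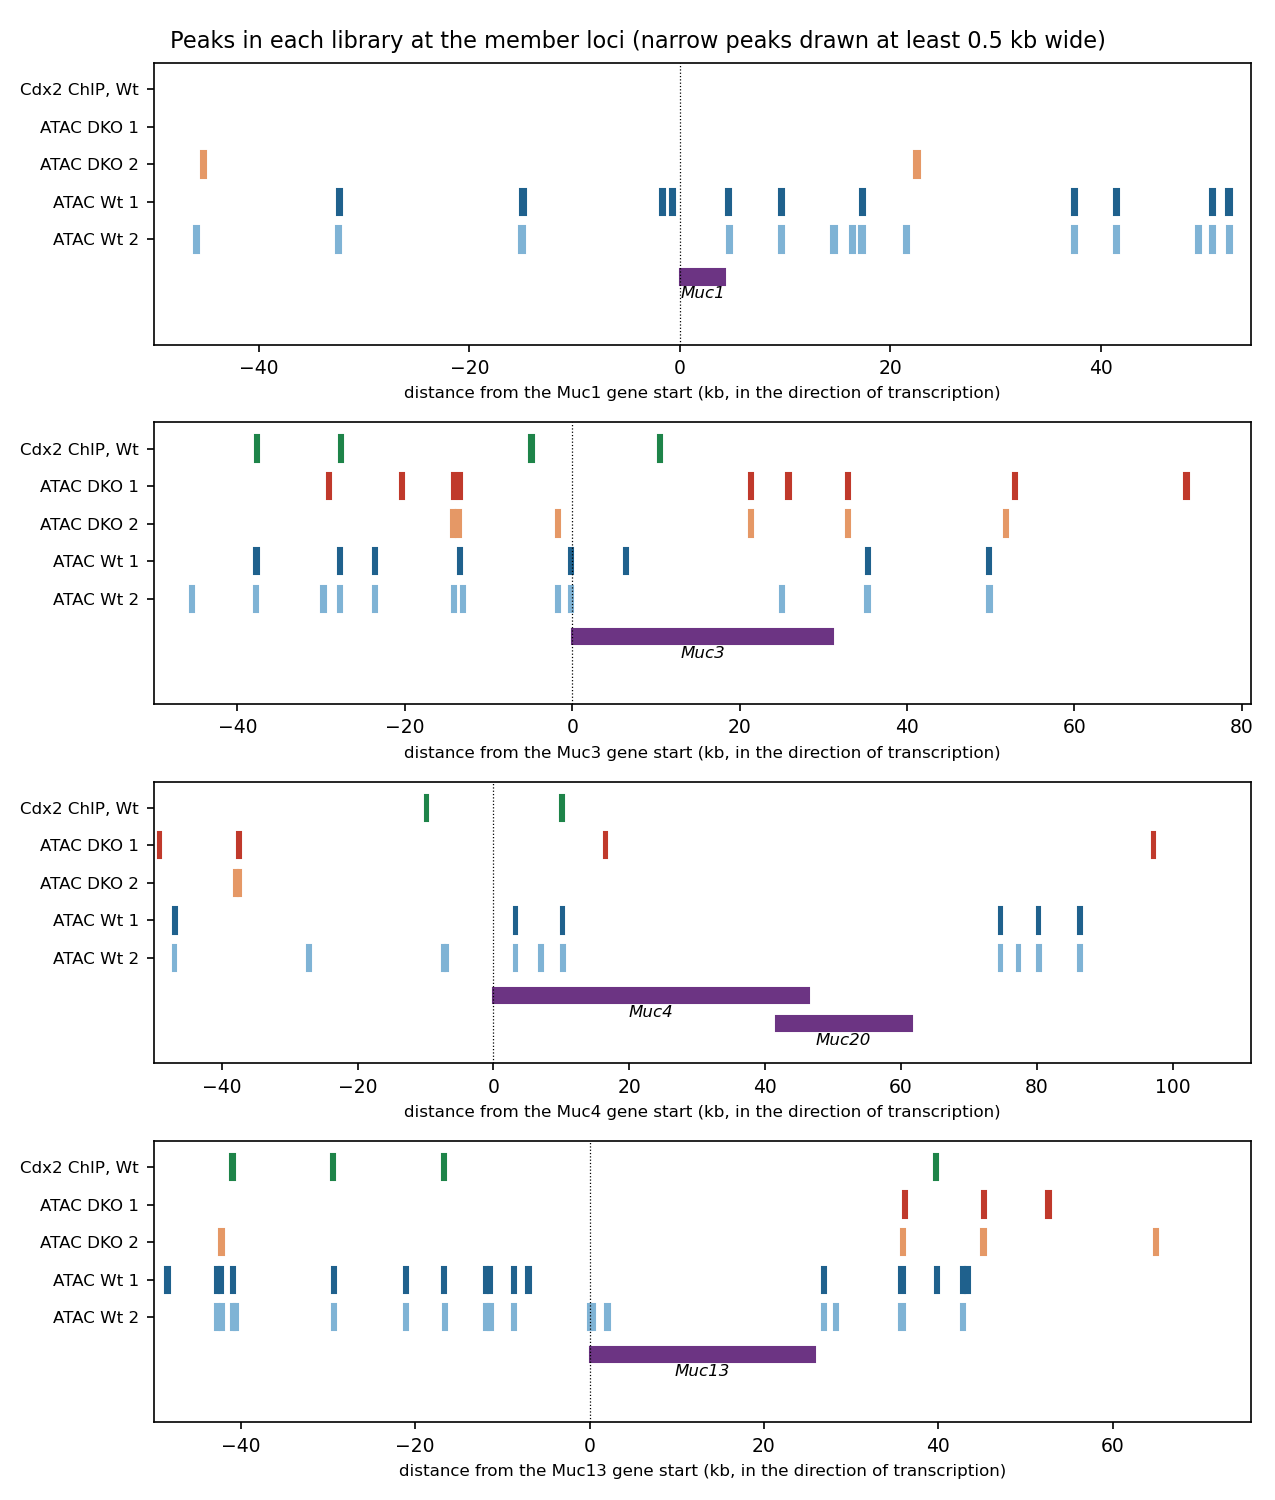
Positions of Cdx2 ChIP peaks (green) and of ATAC peaks in DKO libraries 1 and 2 (red, orange) and Wt libraries 1 and 2 (dark and light blue) around Muc1, Muc3, Muc4 with Muc20, and Muc13, against the distance from the gene start in kb; purple bars are gene spans. Cdx2 peaks lie in or beside Muc3 and Muc4 and on both sides of Muc13, with 0 near Muc1, and the DKO rows are nearly empty upstream of Muc13.

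**Figure D4:**
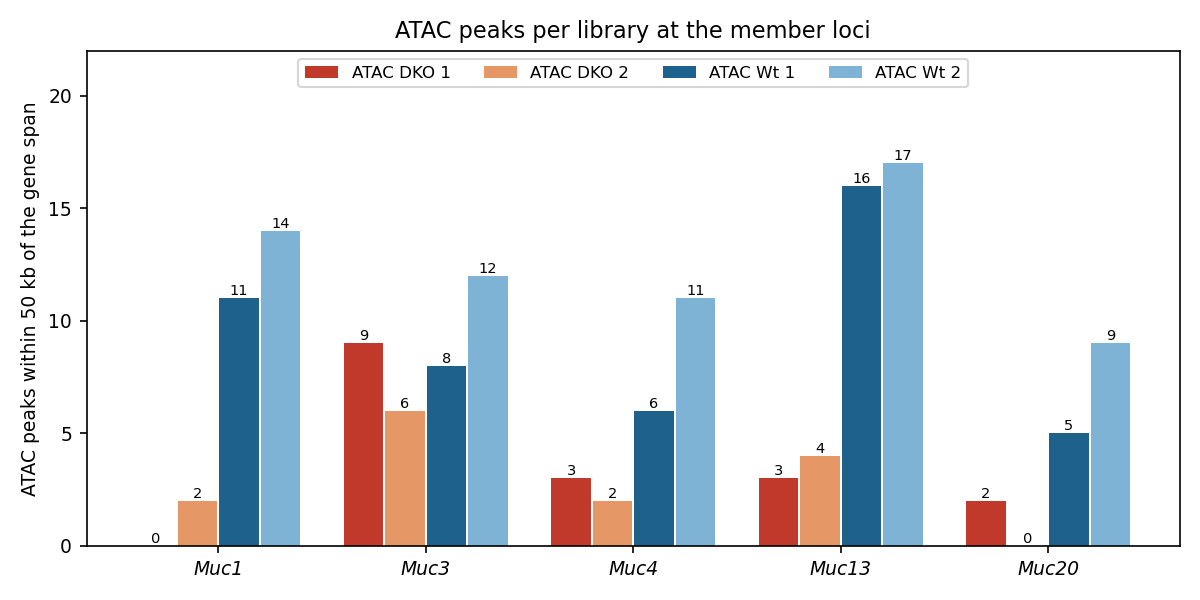
Number of ATAC peaks within 50 kb of each gene span in DKO libraries 1 and 2 and Wt libraries 1 and 2. The DKO counts lie below the Wt counts at Muc1, Muc4, Muc13 and Muc20, and overlap them at Muc3, with 9 and 6 in DKO and 8 and 12 in Wt.

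Muc3 (chromosome 5, 137134924 to 137166048, minus strand, GRCm38) had 4 Cdx2 peaks. The strongest, chr5:137193458-137193915, had its summit at -27.7 kb from the gene start (negative distances are upstream), a fold enrichment of 10.2 and a -log10 q of 26.2, above 96.1% of the peaks in its list. No RefSeq gene span covers it, and it lies 14.9 kb from Muc3a. Both DKO lists held no ATAC peak there, against fold enrichments of 4.75 in Wt library 1 and 5.59 in Wt library 2. A weaker Cdx2 peak at -37.6 kb (fold enrichment 4.72), 4.98 kb from Muc3a, also had no peak in the DKO lists, against 6.28 and 3.96 in the Wt lists. The remaining Cdx2 peaks, at -4.92 kb and, inside the gene span, at 10.5 kb, had fold enrichments of 5.28 and 4.90 and met no ATAC peak in any list.

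Just upstream of the start of Muc3, at -0.18 kb, both Wt lists only held an ATAC peak, at fold enrichments of 4.51 and 4.16. The peak overlaps the promoter window but does not reach the start itself. No DKO list held it, and no Cdx2 peak overlaps it. Since the promoter window of Muc3 carries this difference, its RefSeq sequence is shown, from 250 bases before to 50 bases after the gene start (chr5:137165997-137166296, GRCm38.p6, minus strand), with capitals marking the core letters of the Cdx2 motif, TTTAT, or ATAAA on the other strand.
Muc3 promoter: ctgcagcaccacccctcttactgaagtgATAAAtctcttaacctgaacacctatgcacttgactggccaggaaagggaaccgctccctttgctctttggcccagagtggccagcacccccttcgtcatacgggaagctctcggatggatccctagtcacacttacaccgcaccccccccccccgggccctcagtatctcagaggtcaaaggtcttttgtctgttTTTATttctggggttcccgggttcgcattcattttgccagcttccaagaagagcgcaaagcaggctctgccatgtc
It holds the core at -222 to -218 and at -26 to -22 from the start, the latter outside the ATAC peak. The core is short and occurred in 40.01% of all 32851 promoter windows of 300 bases. Inside the Muc3 span a region at 21.4 kb from the start was gained in DKO, at 2.76 and 3.23 in the DKO lists, as was a region past the gene end at 32.9 kb, at 3.57 and 3.09. No Wt list held either region. At -13.6 kb a region was held at 3.53 and 3.89 in the DKO lists and at 5.01 in Wt library 1. At -14.2 kb the DKO lists held 3.15 and 3.38 and Wt library 2 held 4.82, and at -1.70 kb DKO library 2 held 2.80 and Wt library 2 held 3.41. The Muc3 window thus held lost regions, gained regions and 3 regions with a peak in lists of both groups.

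Muc13 (chromosome 16, 33794037 to 33819929, plus strand) also had 4 Cdx2 peaks, although its RNA was not called. The strongest, chr16:33764434-33764811, had its summit at -29.4 kb inside the span of the upstream gene Heg1, with a fold enrichment of 10.9 and a -log10 q of 37.3, above 97.1% of its list. Neither DKO list held an ATAC peak there, against 5.10 and 5.22 in the Wt lists. At -16.7 kb, between Heg1 and Muc13, the Cdx2 peak had a fold enrichment of 6.06, and ATAC peaks were absent from the DKO lists, against 5.12 and 5.00 in the Wt lists. At -41.0 kb, again inside Heg1, the Cdx2 peak had 4.64, with 0 ATAC peaks in the DKO lists and 4.80 and 4.58 in the Wt lists. The Cdx2 peak at 39.7 kb, inside the downstream gene Itgb5, touched an ATAC peak of Wt library 1 (4.33) by 1 bp.

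**Figure D5:**
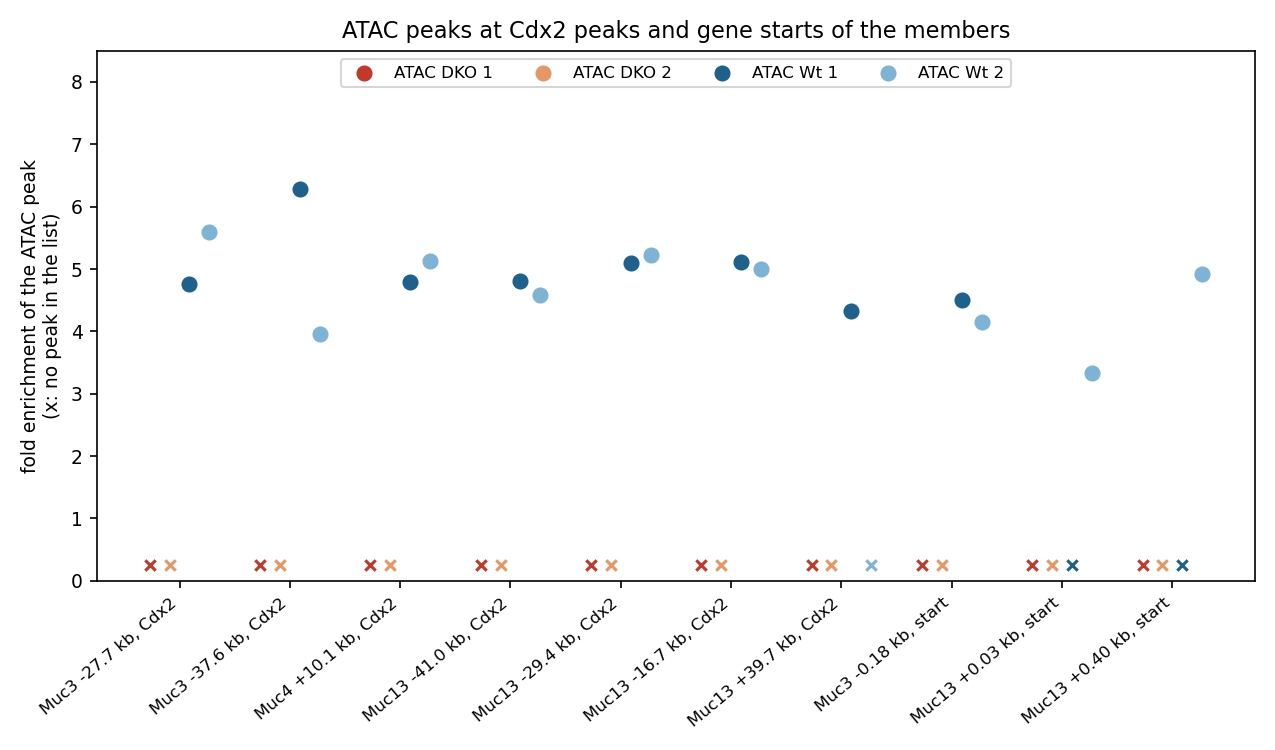
ATAC peak fold enrichment in DKO libraries 1 and 2 and Wt libraries 1 and 2 at each Cdx2 peak that met an ATAC peak. Also shown are regions labelled start, which overlap the promoter windows of Muc3 and Muc13, and crosses mark lists without a peak. All DKO positions are crosses, while Wt values run from 3.33 to 6.28.

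Of 12 regions held by both Wt lists around Muc13, 10 were lost. Those kept lay at -42.2 kb, at 4.96 in DKO library 2 against 5.55 and 6.85 in the Wt lists, and at 35.9 kb in Itgb5, at 3.62 and 3.52 in the DKO lists against 4.98 and 4.92 in the Wt lists. RefSeq gives Muc13 2 starts, at 33794037 and 33794489. Neither DKO list nor Wt library 1 held a peak at either start, whereas Wt library 2 held peaks of 3.33 and 4.92, so the Wt libraries differed from each other there. Both windows (chr16:33793787-33794086 and chr16:33794239-33794538, plus strand) are shown because no DKO list held a peak at either start while the RNA was not called, and capitals mark the Cdx2 motif letters found.
Muc13 promoter, upstream start: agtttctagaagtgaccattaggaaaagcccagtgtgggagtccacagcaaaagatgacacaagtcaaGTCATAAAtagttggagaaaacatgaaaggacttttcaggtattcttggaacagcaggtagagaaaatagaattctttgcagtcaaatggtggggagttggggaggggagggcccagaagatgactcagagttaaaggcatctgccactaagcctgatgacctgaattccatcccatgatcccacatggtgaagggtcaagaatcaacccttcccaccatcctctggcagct
Muc13 promoter, downstream start: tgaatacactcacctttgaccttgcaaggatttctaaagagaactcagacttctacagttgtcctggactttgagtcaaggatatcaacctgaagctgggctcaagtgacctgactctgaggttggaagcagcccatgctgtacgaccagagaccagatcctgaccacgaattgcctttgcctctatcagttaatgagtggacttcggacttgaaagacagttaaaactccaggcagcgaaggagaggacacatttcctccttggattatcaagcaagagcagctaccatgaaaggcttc
The upstream window holds GTCATAAA at -182 to -175 from its start, the other-strand form of TTTATGAC, an 8-letter form of the motif that includes the core and was chosen after the sequences were seen. It occurred in 0.938% of all promoter windows. The downstream window holds no core. The other 8-letter form searched, TTTATTGC or GCAATAAA on the other strand, occurred in 0.974% of windows and in none of the mucin windows.

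Muc1 (chromosome 3, 89229056 to 89233381, plus strand) had no Cdx2 peak within 50 kb. The nearest lay 66.8 kb from its span, with a fold enrichment of 4.74. All 9 regions that both Wt lists held were lost, and Muc1 RNA was higher in DKO. None of these regions lies inside the Muc1 span. Several lie in the spans of other genes, namely Mtx1, Trim46, Krtcap2, Dpm3, Slc50a1 and Efna1. The strongest lost region, at -32.4 kb and in no gene span, had no peak in the DKO lists, against 7.30 and 9.55 in the Wt lists. A region just past the gene end, at 4.69 kb from the start, likewise had no DKO peak, against 3.70 and 3.11 in the Wt lists. DKO library 1 held 0 peaks in the whole window and DKO library 2 held 2, at 2.51 and 2.84, neither shared with a Wt list. No list held a peak over the promoter window itself (chr3:89228806-89229105, plus strand), which is shown for contrast with that of Muc3.
Muc1 promoter: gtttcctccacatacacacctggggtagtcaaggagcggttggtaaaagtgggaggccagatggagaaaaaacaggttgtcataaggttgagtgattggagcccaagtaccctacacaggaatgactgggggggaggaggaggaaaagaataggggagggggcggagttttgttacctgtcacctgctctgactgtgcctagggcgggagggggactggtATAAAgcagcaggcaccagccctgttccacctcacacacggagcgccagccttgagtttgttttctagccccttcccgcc
Its only core match, at -30 to -26, lies within the letters TATAAA.

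Muc4 (chromosome 16, 32735886 to 32782391, plus strand), a large mucin with EGF-like domains, and Muc20 (32777419 to 32797435, minus strand) overlap at their ends. A Cdx2 peak lay inside the Muc4 span at 10.1 kb from its start (chr16:32745882-32746142), with a fold enrichment of 5.33 and a -log10 q of 7.54. The DKO lists held no ATAC peak there, against 4.79 and 5.12 in the Wt lists. A stronger Cdx2 peak upstream of Muc4, at -9.89 kb, had a fold enrichment of 6.80 and met no ATAC peak. Around Muc4 6 of 6 regions of both Wt lists were lost and 1 region, at -37.4 kb, was gained, at 3.30 and 3.08 in the DKO lists. Around Muc20 5 of 5 were lost, all of them also among the 6 of Muc4, because the windows overlap. Of these the nearest to the Muc20 start lay at -13.1 kb, with no DKO peak, against 4.89 and 5.68 in the Wt lists. With 100 kb on either side, 8 of 12 regions of both Wt lists were lost around Muc4 and 7 of 9 around Muc20. The Cdx2 peak in Muc4 was the only Cdx2 peak within 50 kb of the Muc20 span, at 51.5 kb from the Muc20 start. The promoter windows of Muc4 and Muc20 held no ATAC peak in any list.

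Neighbouring genes gave a local comparison. Beside Muc1, the authors' deposited table called the thrombospondin Thbs3, 2.21 kb away, lower at -2.44 (SE 0.63) and had Trim46, 0.788 kb away, at -0.17 (SE 0.34), so neither neighbour was called higher with Muc1. Beside Muc3, the authors' deposited table called Trim56 lower at -0.67 (SE 0.25) and the lncRNA Gm40348, which overlaps the start of Muc3, at -3.35 (SE 0.92). Gm40348 had a mean of 28.2 normalized counts, and reads of overlapping genes cannot be told apart where the strand was not used in counting, which the sources used here do not state. Beside Muc13, the authors' deposited table called the integrin subunit Itgb5 lower at -1.79 (SE 0.23) and had Heg1 at -0.75 (SE 0.39) with an adjusted p of 0.0806. On either side of Muc4 and Muc20, the authors' deposited table called the kinase Tnk2 higher at 1.48 (SE 0.23) and had Smbd1 at -0.19 (SE 0.72).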

How the data were processed

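Gene values are those of the authors' deposited table. Its mean normalized count is a signal that the authors scaled, per the file headers, to compare libraries. The log2 fold changes run DKO over Wt, by the authors, and its p-values with their Benjamini-Hochberg adjustment are also deposited. The adjustment was recomputed and matched, and fold over SE returned the deposited p for 1751 of 17511 genes (within 0.01 in log10), so the folds appear shrunken. The 4 transcripts with at least 50000 mean reads and a 16-fold difference were lower in DKO, as were the 3 such genes of the table. Estimated counts per transcript were made by the authors with Salmon 1.3.0, per the submitters' processing notes, and used only for that check and library totals, because nothing used here pairs transcripts with genes. The planned tests on transcripts and summed counts were therefore not run. Peaks carry a fold enrichment ratio and a -log10 q from the authors' caller, MACS2 by the submitters' processing notes, which also name BWA, Bowtie2, fastp and the builds mm10 and GRCm38. The sources used here give no roles, settings, transposase shift or ChIP control.

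Loci are RefSeq spans of GRCm38.p6, on assembled chromosomes, widened by 50 kb, and features sharing 1 bp count as overlapping. Gene starts, strands and promoter sequences are from the RefSeq promoter table of that build. Exons were not annotated. Alternatives were windows of 10 and 100 kb, a -log10 q of at least 5, an overlap of 50 percent of the Cdx2 peak, each ATAC library left out, an adjusted p under 0.01, and p readjusted over genes with a mean of at least 50. Named genes were all members, the nearest measured gene on each side, and per list up to 4 called genes of largest fold with a mean of at least 50, or every measured gene of short lists. Members and lists were chosen with earlier results of these data known. Python 3.11.15, numpy 2.4.6, pandas 2.3.3, scipy 1.17.1 and matplotlib 3.10.9 were used, and region calls were tested on simulated data.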

Additional observations from a re-analysis of the deposited data

How the results depend on the processing

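The calls of Muc1 and Muc3 and the absence of a call for Muc13 held under both other thresholds, while Muc20 had too low a mean to enter the readjusted set. Among surface mucin partners, 3 were lower in place of 5 at an adjusted p under 0.01. With p readjusted, the lower partners were still 5, but Pdzk1 had too low a mean to enter and Lgals4 was called in its place. With 10 kb on either side, 4 Cdx2 peaks, 8 lost and 2 gained regions were found, in place of 10, 31 and 4. At a -log10 q of at least 5 there were 16 lost and 0 gained regions. Leaving out each ATAC library in turn gave 31 to 50 lost regions, the highest without Wt replicate 1, and 4 gained regions became 5 to 13, the highest without DKO replicate 2 and 10 without DKO replicate 1. The share lost among regions of every remaining Wt list was 92.6% to 97.0% at the mucin loci and 78.0% to 86.3% over the genome. With an overlap of 50 percent of the Cdx2 peak, 4 Cdx2 peaks met an ATAC peak in place of 7, and 3 met one in both Wt lists and no DKO list in place of 6. The causes were not tested. No paired analysis was possible because no file used here pairs transcript values with genes and peak lists give no test, and no library could be left out of the gene values for the same reason. Of the genes named, Muc20, Emcn, Pdzk1, Gm40348 and Smbd1 had means under 50, so none of them could be read in the readjusted set. The part of depth in the missing call of Muc20 was not tested.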
